A study of Mus musculus with 37 samples.

Results

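Intact inguinal mammary glands exposed to 10 cGy of silicon ions were compared with glands exposed to 100 cGy of gamma rays, 1, 4 and 12 weeks after exposure. The comparison held all 9 arrays whose titles name 10 cGy Si and all 9 whose titles name 100 cGy gamma, 18 of the 37 arrays in the series, with 3 arrays per treatment and week. Every difference was taken within a week and then averaged over the 3 weeks, and each week is also given alone. Each gene was represented by the single-symbol probe set with the highest mean over all 37 arrays, and 13174 of 18820 genes passed the filter on low values.

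The samples came from female BALB/c mice that were irradiated or sham-exposed at 10 weeks of age, and the labels name no engineered allele. In all groups the opposite inguinal gland had been cleared surgically when the mice were young, so the tissue measured was the gland left in place. Silicon ions were delivered at 350 MeV/amu, and the remaining arrays of the series, used here only for context, were 10 sham and 9 receiving 30 cGy Si. Mice of weeks 4 and 12 had been shipped back from the irradiation site before tissue was taken, and those of week 1 had not. The groups differ in both radiation type and dose, and the effects of these cannot be told apart. The labels do not say whether replicates are separate mice, so the p-values given here reflect variation among arrays that could be technical in part.

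Gamma rays ionize sparsely and deposit their energy evenly over a tissue. Heavy ions such as silicon ionize densely along narrow tracks, so that a low dose leaves clustered DNA breaks in the cells a track crosses and spares others. In mammary tissue the canonical acute response to either is the p53 program, which halts the cell cycle and removes damaged cells, and later responses described after irradiation involve immune cells, interferon signalling and the stroma.

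The arrays were broadly alike in their values, and no measure of RNA quality was examined. Median correlations of an array with the others ran from 0.964 to 0.982, and among the 18 compared arrays, gamma week 1 replicate 1 (0.973) and Si week 1 replicate 3 (0.976) were least like the rest. All 4 luminal keratin and adhesion markers (Krt8, Krt18, Krt19, Epcam) and all 4 adipocyte markers (Adipoq, Plin1, Fabp4, Lep) had log2 levels of at least 7.71 in every array. The mix of other tissues varied widely between arrays of the same group. The mean of 23 skeletal muscle genes lay between 5.12 and 9.42 in Si arrays and between 5.91 and 9.13 in gamma arrays at week 1, and that of 19 T and NK cell genes between 4.71 and 7.34 and between 4.74 and 6.03. In whole tissue, fewer cells of a type and less RNA per cell cannot be told apart.

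Over the 3 weeks together, limma called 0 of 13174 genes between 10 cGy Si and 100 cGy gamma (percent called 0.0), and the smallest adjusted p was 0.964. An unadjusted p under 0.05 was found for 574 genes (4.36%), 290 of them above 0 (2.2%) and 284 below (2.16%). No gene had all 9 Si arrays on one side of all 9 gamma arrays. The median difference over all genes was 0.00 on the log2 scale and 51.2% of genes lay above 0.

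The size of difference that these arrays leave room for can be read from the intervals. For 12451 genes (94.5%) the 95% interval of the 3-week difference lay within a 1.5-fold change in either direction, and for 12985 genes (98.6%) within a 2-fold change. In single weeks, with 3 arrays against 3, the share within 1.5-fold was 73.8% at week 1, 71.6% at week 4 and 73.9% at week 12. A difference beyond 2-fold over the 3 weeks was measured for 1 gene, the muscle sarcomere gene Myoz1, at −1.01 ± 0.85, a gene singled out after its value was seen. Its weekly differences were −2.19, 1.45 and −2.28, and the skeletal muscle list moved with it, with medians of −1.66, 1.5 and −1.40. The part of muscle in its value was not tested.

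**Figure D1:**
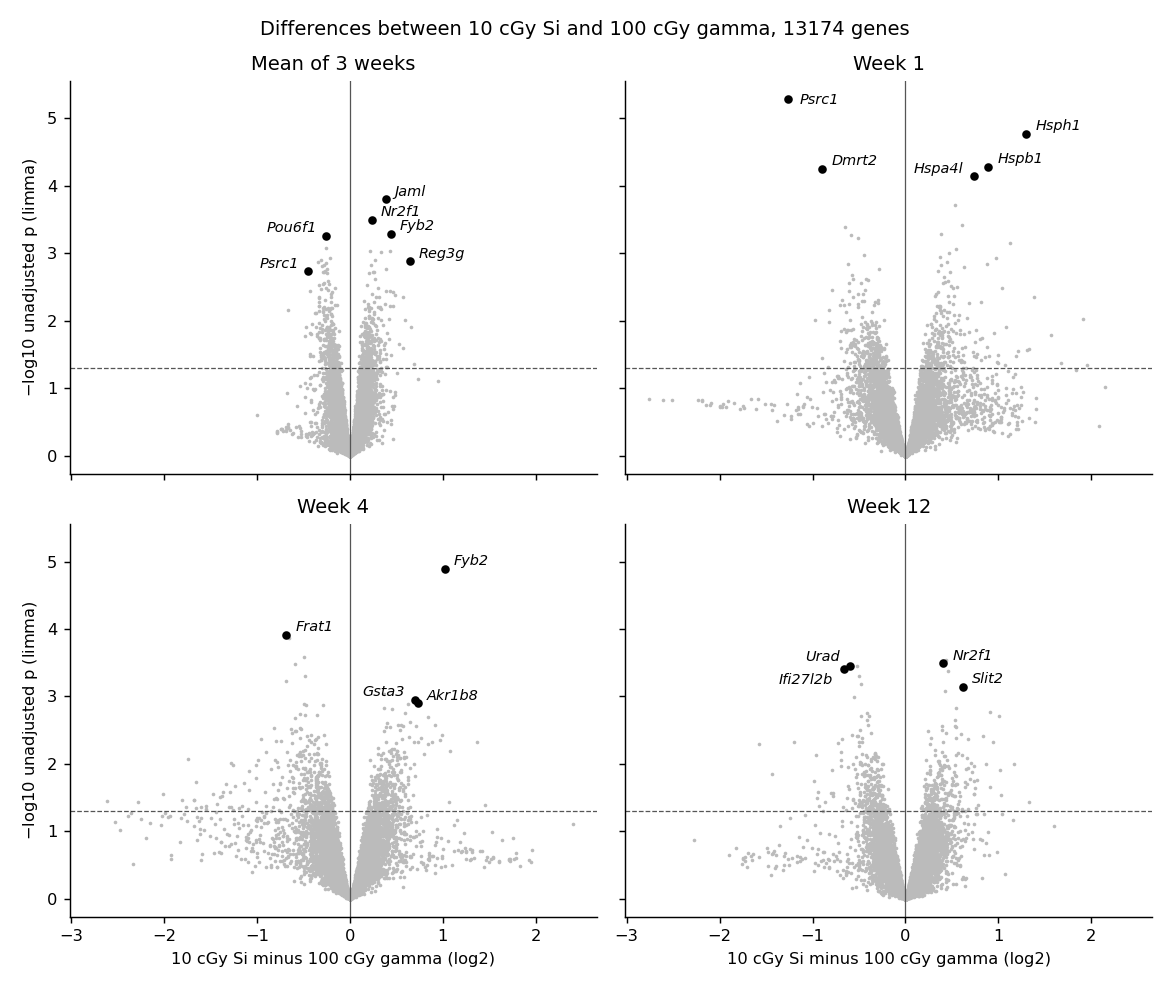
Each point is 1 of 13174 genes. The x axis is the log2 difference of 10 cGy Si minus 100 cGy gamma and the y axis is −log10 of the unadjusted limma p, over 3 weeks and in each week. The dashed line marks an unadjusted p of 0.05, and the labelled black points are genes named in the text. Psrc1 at week 1 has the smallest p of the 4 panels, with an adjusted p of 0.0675, and the cloud of 3-week differences is narrower than that of any week.

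At week 1 limma called 0 genes (percent called 0.0), 518 had an unadjusted p under 0.05 (3.93%), and the arrays of 1568 did not overlap between the groups (11.9%). Psrc1, a microtubule-binding gene activated by p53, had the smallest adjusted p of any comparison, at week 1. Its log2 levels in the Si arrays were 5.17, 4.63 and 4.58, and in the gamma arrays 5.62, 6.89 and 5.65. All 3 gamma arrays lay above all 3 Si arrays, and gamma replicate 2 stood above the other two. The difference was −1.26 ± 0.23, a 2.40-fold lower level after Si, with a 95% interval from −1.72 to −0.80 (limma adjusted p = 0.0675).

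The sham arrays of that week were at 4.94, 4.76 and 4.62, and the 30 cGy Si arrays at 4.96, 5.14 and 4.74, both in the range of the 10 cGy Si arrays. Against sham, Psrc1 differed by 0.02 after 10 cGy Si and by 1.28 after gamma. By week 4 the Si minus gamma difference was −0.10 ± 0.23 and by week 12 it was 0.02 ± 0.23, with overlapping arrays both times. Psrc1 has 2 promoter windows in the RefSeq table, and the p53 half-site, searched on both strands, was in 0 of them. Of the p53 list, 22 members had a window and 9 held it, against 8.47% of tested genes. The week 1 value was −0.84 without gamma replicate 2 and passed the threshold in 6 of the alternatives tried, listed in the closing section.

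The wider p53 list did not follow Psrc1 uniformly. Of its 27 tested members, 0 were called at week 1 (background 0.0%), 8 lay above 0, and the median difference was −0.08 against 0.00 over all genes. The arrays of 7 members did not overlap with Si below gamma (background 6.38%) and of 0 members with Si above gamma (background 5.52%). With an unadjusted p under 0.05 there were 4 members below 0 (background 1.94%) and 1 above (background 2.0%), which are named here after their values were seen: Psrc1, Eda2r, Perp and Ephx1 below and Btg2 above.

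Cdkn1a, the cell-cycle inhibitor p21 and a central p53 target, showed little difference between the radiations at week 1. Its levels were 9.13, 9.73 and 9.38 after Si and 8.98, 9.61 and 9.35 after gamma, while sham arrays were at 8.48, 8.30 and 8.19. The Si and gamma arrays overlapped and all 6 lay above the 3 sham arrays. The difference between the radiations was 0.10 ± 0.31, and each differed from sham by a similar amount, 1.09 for Si and 0.99 for gamma.

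Eda2r, a member of the tumour necrosis factor receptor family, was at 4.57, 4.62 and 4.67 after Si and at 4.95, 4.96 and 5.64 after gamma at week 1. The groups did not overlap, and the difference was −0.56 ± 0.21 (limma adjusted p = 1). Perp, a desmosomal p53 effector, differed by −0.70 ± 0.28 and Ephx1, an epoxide hydrolase, by −0.42 ± 0.13, both with separate arrays. The p53 feedback ligase gene Mdm2 was at −0.08 ± 0.11, the cyclin gene Ccng1 at −0.06 ± 0.15 and the Akt inhibitor gene Phlda3 at −0.43 ± 0.30. Over the 3 weeks the list had a median of −0.04, with 10 of 27 members above 0, and the stress sensor gene Sesn2 was at −0.31 ± 0.14. For repair genes that act on double-strand breaks, 22 of 22 tested members had 3-week intervals within 1.5-fold, near the 94.5% of all genes. Their median was 0.00, and the values of Xrcc5, Nbn, Topbp1 and Xrcc3 were 0.13 ± 0.09, 0.10 ± 0.06, 0.08 ± 0.09 and −0.08 ± 0.10.

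Heat shock proteins, chaperones that fold and rescue denatured proteins and are induced through heat shock factor 1, with the mitochondrial Hspd1 and Hspe1 among those listed, lay above the gamma level after 10 cGy Si at week 1. Of 17 tested members, 16 were above 0 with a median of 0.33 (against 0.00 over all genes). The arrays of 12 members did not overlap with Si above gamma (background 5.52%) and of 0 with Si below. With an unadjusted p under 0.05 there were 11 members above 0 (background 2.0%), and 0 were called (background 0.0%).

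Hsph1, a nucleotide exchange factor for Hsp70, was at 8.04, 9.18 and 8.62 in the Si arrays and at 7.41, 7.25 and 7.28 in the gamma arrays. The Si arrays lay apart from one another and all 3 were above gamma. The difference was 1.30 ± 0.25, a 2.47-fold higher level after Si (limma adjusted p = 0.110), and sham arrays were at 6.67, 6.77 and 7.41. Against sham the values were 1.66 after Si and 0.36 after gamma.

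Hspb1, the small heat shock protein, was at 10.04, 11.19 and 10.90 after Si and at 9.69, 9.94 and 9.82 after gamma. Its groups did not overlap either, and the difference was 0.89 ± 0.19 (limma adjusted p = 0.184). Hspb1 has 3 probe sets, and their mean gave a smaller difference of 0.63. Hspa4l, another Hsp110 family member, differed by 0.74 ± 0.16, the cochaperone Stip1 by 0.53 ± 0.12 and the inducible Hsp90 gene Hsp90aa1 by 0.60 ± 0.15, with separate arrays in each. The member nearest to 0 was the small chaperone Hspb8, at −0.01 ± 0.22.

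These values rested unevenly on the Si arrays of week 1. Replicate 1 was the lowest of the 3 for Hsph1, Hspb1 and Hspa4l, and without it those 3 genes and Psrc1 passed the threshold, with differences of 1.59, 1.23, 0.95 and −1.45. Without replicate 2, the highest, Hsph1 was at 1.02, Hspb1 at 0.65 and Hspa4l at 0.47. The list median at week 1 was 0.26 without replicate 2 and 0.47 without replicate 1. Adding the tissue covariates gave 0.34.

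At weeks 4 and 12 the chaperone list was closer to 0. Its median was 0.11 at week 4, where 12 of 17 members lay above 0 and the arrays of 3 did not overlap with Si above gamma (background 6.44%), and 0.00 at week 12, where 9 lay above 0 and the arrays of 0 members separated in either direction. Over the 3 weeks all 17 members lay above 0, the median was 0.15, and 7 had an unadjusted p under 0.05 (background 2.2%). The largest 3-week values were those of Hsph1 (0.46 ± 0.15), Hspa4l (0.34 ± 0.09), Hspb1 (0.30 ± 0.11) and the cochaperonin Hspe1 (0.25 ± 0.10).

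The promoters of the 2 members with the largest week 1 difference are shown because heat shock factor binds inverted repeats of a short motif that can be seen in them. The window is the 250 bases before the annotated start, from RefSeq on GRCm38.p6, written 5′ to 3′ on the gene's strand. Capitals mark matches to GAANNTTC or TTCNNGAA, which read the same on both strands and may overlap each other. Hsph1 (chr5:149636337-149636586, minus strand) had 1 match and Hspb1 (chr5:135887669-135887918, plus strand) had 2.
Hsph1: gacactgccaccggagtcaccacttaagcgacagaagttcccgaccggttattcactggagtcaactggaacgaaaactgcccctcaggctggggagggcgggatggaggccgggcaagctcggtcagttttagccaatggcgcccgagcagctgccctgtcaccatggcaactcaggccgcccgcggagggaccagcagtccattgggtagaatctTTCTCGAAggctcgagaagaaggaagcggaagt
Hspb1: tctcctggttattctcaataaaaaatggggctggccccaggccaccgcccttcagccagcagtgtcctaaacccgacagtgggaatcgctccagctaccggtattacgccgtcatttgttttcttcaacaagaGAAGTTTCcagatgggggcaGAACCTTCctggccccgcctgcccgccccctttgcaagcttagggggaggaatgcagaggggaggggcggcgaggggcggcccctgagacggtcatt
Of the 17 list members, 15 had a promoter in the table, counted with the 50 bases after the start, and 9 of these held the motif. Of the 10392 tested genes with a promoter in the table, 1436 (13.8%) held it. The 2 promoters shown were taken by size of difference and both hold it, but Hspa4l and Stip1, also named above, have a window without it, and Hspb8, the member nearest to 0, holds it. A match is a string of letters, not an occupied site.

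**Figure D2:**
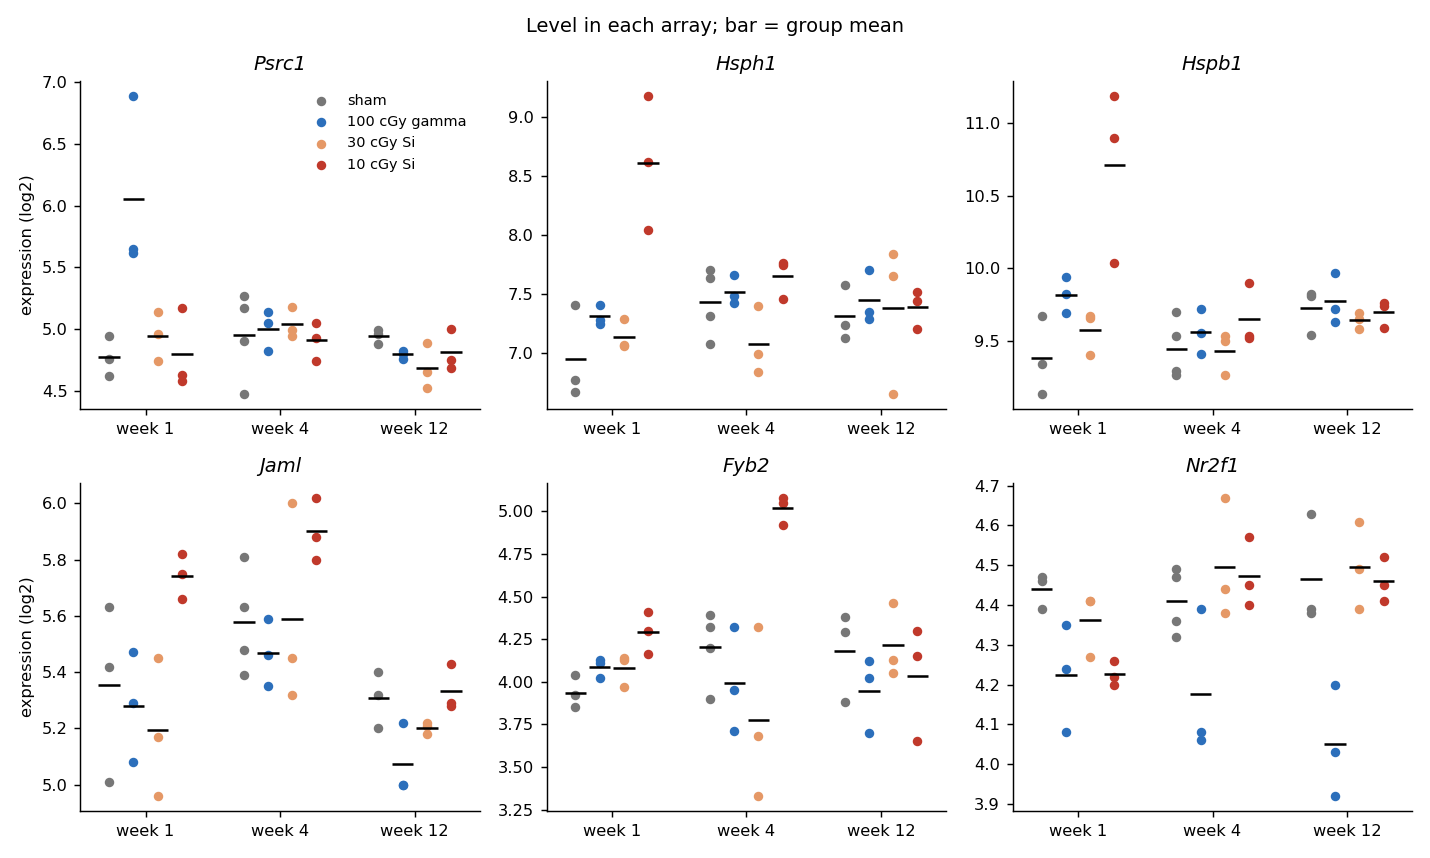
Log2 level of 6 genes in every array of the series, by week, with 1 point per array and a black bar for the mean of each group of 3 (4 for sham at week 4). Colours mark sham, 100 cGy gamma, 30 cGy Si and 10 cGy Si. Psrc1 stands high in the gamma arrays of week 1, Hsph1 and Hspb1 in the 10 cGy Si arrays of week 1 and Fyb2 in the 10 cGy Si arrays of week 4, while Jaml has all 10 cGy Si arrays above all gamma arrays in each week.

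The other genes named at week 1 by the rule were lower after Si than after gamma. Dmrt2, a transcription factor with a DM domain, differed by −0.90 ± 0.19 (limma adjusted p = 0.184), with levels of 7.57, 6.84 and 7.55 after Si and 7.87, 8.59 and 8.18 after gamma. Loxl4, a collagen cross-linking oxidase, differed by −0.65 ± 0.16, Vash2, a tubulin carboxypeptidase, by −0.58 ± 0.15 and Fam117a by −0.51 ± 0.13. The arrays of these genes did not overlap between the groups. For Loxl4 the Si arrays (4.42, 4.45 and 4.54) were close to sham (4.58, 4.49 and 4.46), and the gamma arrays (4.98, 5.13 and 5.25) lay above both. The mean of the probe sets of Loxl4 gave a smaller difference of −0.44.

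Fatty acid synthesis genes, the lipogenic enzymes of adipocytes and epithelium, also lay above gamma after 10 cGy Si at week 1. Of 23 members, 20 were above 0 with a median of 0.35, the arrays of 10 did not overlap with Si above gamma, 6 had an unadjusted p under 0.05 and 0 were called, against the week 1 backgrounds of 5.52%, 2.0% and 0.0%. Fasn, the fatty acid synthase, was at 12.48, 12.55 and 12.24 after Si and at 11.58, 11.45 and 10.86 after gamma, a difference of 1.13 ± 0.30, with sham between them at 11.61, 12.02 and 11.70. Elovl6, an elongase, differed by 1.91 ± 0.69, the citrate lyase gene Acly by 1.57 ± 0.61 and the acetyl-CoA carboxylase gene Acaca by 1.39 ± 0.45, all with separate arrays. The list median at week 1 was 0.22 without Si replicate 2 and 0.13 with covariates for tissue mix. The list was at 0.08 at week 4 and at −0.07 at week 12, and the 30 cGy Si minus gamma difference of Fasn at week 1, which uses the same gamma arrays, was 1.03 ± 0.30.

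Markers of the stroma and the basal layer lay on the other side at week 1. Basal epithelial genes, which mark the contractile myoepithelial layer, had a median of −0.33 with 2 of 20 above 0, and the arrays of 9 did not overlap with Si below gamma (background 6.38%). The basal keratin gene Krt5 was at −0.62 ± 0.32 and the oxytocin receptor gene Oxtr at −0.74 ± 0.39. With tissue covariates the list median was −0.14. The epithelial covariate includes Krt5, itself on this list, so the smaller median cannot show the part of tissue mix. Fibroblast genes had a week 1 median of −0.26, with the arrays of 8 of 19 separate and Si below (background 6.38%), and a week 4 median of 0.21, with 6 separate and Si above (background 6.44%). The part of the tissue mix in these values was not tested.

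At week 4, limma called 0 genes (percent called 0.0), with 727 at an unadjusted p under 0.05 (5.52%), and the arrays of 1594 genes did not overlap (12.1%). Fyb2, an adaptor protein related to the T cell adaptor Fyb, had the smallest p. It was at 5.08, 5.05 and 4.92 after Si and at 3.95, 4.32 and 3.71 after gamma. The Si arrays lay close together and above all gamma arrays, all sham arrays of week 4 (highest 4.39) and all 30 cGy Si arrays of week 4 (highest 4.32). The difference was 1.02 ± 0.19, a 2.03-fold higher level (limma adjusted p = 0.168). The gamma values of 3.95 and 3.71 lay below the value of the filter on low genes, log2 4.04. The fold therefore rests on low levels.

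Fyb2 differed by 0.21 ± 0.19 at week 1, with separate arrays, and by 0.09 ± 0.19 at week 12, with overlapping ones. The week 4 value ranged from 0.88 to 1.19 as single arrays were left out. The mean of the T and NK cell genes at week 4 was 4.49, 6.55 and 4.54 after Si and 6.64, 5.86 and 7.98 after gamma, and the groups overlapped. Its part in the Fyb2 values was not tested.

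Detoxifying enzymes were among the genes named at week 4. Gsta3, a glutathione S-transferase, was at 8.73, 8.90 and 9.10 after Si and at 8.60, 7.67 and 8.35 after gamma, with sham arrays from 8.44 to 8.85. The groups did not overlap and the difference was 0.71 ± 0.19 (limma adjusted p = 0.851), or 0.44 without gamma replicate 2, the lowest array. Akr1b8, an aldo-keto reductase, differed by 0.73 ± 0.20 and Rhob, a small GTPase, by 0.63 ± 0.18. Of the 23 antioxidant genes, 21 were above 0 at week 4 with a median of 0.18, the arrays of 5 separated with Si above gamma (background 6.44%) and 4 had an unadjusted p under 0.05 (background 2.57%). The list median was 0.12 without gamma replicate 3. Nqo1, a quinone reductase regulated by NRF2, was at 0.42 ± 0.19 and Gsta4 at 0.44 ± 0.21.

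Lower after Si than after gamma at week 4, by the rule for named genes, were Frat1, an inhibitor of Gsk3 in Wnt signalling (−0.69 ± 0.15), and Ddx11, a DNA helicase of sister chromatid cohesion (−0.66 ± 0.15), both with a limma adjusted p of 0.600. Ddx11 was at 5.27, 5.43 and 5.45 after Si and at 5.75, 6.41 and 5.96 after gamma, with sham arrays from 5.45 to 5.61. The ciliary transcription factor gene Rfx3 was at −0.59 ± 0.14, the zinc finger repressor gene Zgpat at −0.50 ± 0.12 and the endoplasmic reticulum ATPase gene Atp13a1 at −0.48 ± 0.12. The ubiquitin ligase gene Hecw2 was at 0.37 ± 0.10 on the other side. All of these had separate arrays.

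Respiratory chain genes had a median of 0.25 at week 4, with all 28 members above 0. The arrays of 5 separated with Si above gamma (background 6.44%) and 5 had an unadjusted p under 0.05 (background 2.57%). The complex I gene Ndufa1 was at 0.48 ± 0.23, and the ATP synthase gene Atp5o was at 0.36 ± 0.17. Their means per array were 8.96, 8.74 and 9.10 after Si and 8.75, 8.68 and 8.66 after gamma, so Si replicate 2 lay within the gamma range. The week 4 list median was 0.18 with tissue covariates, and 0.17 without Si replicate 3, the array with the highest skeletal muscle level of these 6 (9.205). Over 3 weeks the median was 0.14, and 0.05 with the covariates. The brown adipocyte markers among the covariates include Cox7a1 and Cox8b, themselves respiratory chain subunit genes. The smaller medians with covariates therefore cannot show the part of tissue mix, which was not tested.

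Macrophage genes had a median of 0.41 at week 4, with 20 of 21 above 0 and the arrays of 6 separate with Si above gamma (background 6.44%). The scavenger receptor gene Cd163 was at 0.69 ± 0.25 with separate arrays and the integrin gene Itgam at 0.52 ± 0.26. At week 1 the list median was −0.16, or 0.02 without gamma replicate 2. At week 12 it was 0.28, or 0.13 without gamma replicate 1 and 0.15 without Si replicate 2. Macrophage list means per array at week 4 were 8.38, 8.01 and 7.98 after Si and 7.83, 7.77 and 7.65 after gamma, without overlap.

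At week 12, limma called 0 genes (percent called 0.0), 502 had an unadjusted p under 0.05 (3.81%) and the arrays of 1227 did not overlap (9.31%). The smallest adjusted p was 0.915. Nr2f1, an orphan nuclear receptor, was at 4.52, 4.45 and 4.41 after Si and at 3.92, 4.03 and 4.2 after gamma, with sham at 4.38, 4.63 and 4.39. The gamma arrays lay below both other groups, and the difference was 0.41 ± 0.10. The gamma values of 3.92 and 4.03 were below the filter value of log2 4.04. Slit2, a secreted guidance ligand of Robo receptors, differed by 0.61 ± 0.16, the deubiquitinase gene Usp12 by 0.43 ± 0.11, the sodium-proton exchanger gene Slc9a4 by 0.46 ± 0.11 and Lins1 by 0.42 ± 0.11.

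On the other side at week 12, Ifi27l2b, of the family of small interferon-inducible Ifi27 proteins, was at 4.43, 4.04 and 4.58 after Si and at 5.09, 5.10 and 4.84 after gamma. Its groups did not overlap and the difference was −0.66 ± 0.16. Urad, an enzyme of urate breakdown, differed by −0.59 ± 0.15, the metallothionein gene Mt3 by −0.56 ± 0.15, the Hedgehog pathway kinesin gene Kif7 by −0.48 ± 0.12 and the germ cell glycolytic gene Gapdhs by −0.41 ± 0.12. Arrays overlapped for Gapdhs and not for the others. Kif7 rests on its chosen probe set, since the mean of its probe sets gave −0.11 at week 12 and −0.09 over the 3 weeks. Mt3 was at −0.37 without gamma replicate 1.

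The interferon list, genes that cells switch on in response to type I and type II interferons, lay above gamma after 10 cGy Si at the later weeks. At week 12, 23 of 24 members were above 0 with a median of 0.37, the arrays of 12 did not overlap with Si above gamma (background 5.11%) and 6 had an unadjusted p under 0.05 (background 1.86%). At week 4, 23 were above 0 with a median of 0.35, the arrays of 6 separated in that direction (background 6.44%) and 3 had an unadjusted p under 0.05 (background 2.57%). At week 1 the median was −0.09 with 6 above 0. None of the members was called in any week (background 0.0% each).

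Oas1a, an antiviral oligoadenylate synthetase, had the largest 3-week value of the list. At week 12 it was at 5.69, 5.76 and 6.03 after Si and at 4.30, 5.38 and 4.31 after gamma, with sham at 5.25, 4.84 and 5.61. The Si arrays lay above both other groups, and gamma replicate 2 stood apart from its group at the sham level. The difference was 1.17 ± 0.42, a 2.24-fold higher level (limma adjusted p = 0.999).

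Irf7, the transcription factor that amplifies the interferon response, was at 7.37, 7.75 and 7.55 after Si and at 6.47, 7.21 and 6.49 after gamma at week 12. The arrays did not overlap and the difference was 0.83 ± 0.26. Over the 3 weeks Oas1a was at 0.57 ± 0.24, Irf7 at 0.37 ± 0.15, the antiviral GTPase gene Mx1 at 0.35 ± 0.16 and Oas3 at 0.30 ± 0.24. The interferon list had the highest 3-week median of the 35 lists, 0.21, with 22 of 24 above 0 and 5 at an unadjusted p under 0.05 (background 2.2%). It was 0.13 without gamma week 1 replicate 1, 0.28 without gamma week 1 replicate 2 and 0.21 with tissue covariates, which hold no macrophage markers.

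The list means show which arrays this rested on. At week 12 they were 6.79, 6.81 and 6.76 after Si and 6.22, 6.67 and 6.26 after gamma, and at week 4 they were 6.88, 6.68 and 6.87 after Si and 6.32, 6.63 and 6.41 after gamma. The groups did not overlap in either week, gamma replicate 2 being nearest to Si in both. Macrophage list means at week 12 were 7.51, 8.07 and 7.97 after Si and 7.41, 7.73 and 7.78 after gamma, with overlap. At week 4, as given above, the macrophage means also separated with Si above gamma. The part of macrophages in the interferon values of either week was not tested. Among the 37 arrays, the sham arrays of week 12 ranged from 6.19 to 6.81 for the interferon list, a spread that covers the means of both groups.

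The promoter of Oas1a is shown for the interferon-stimulated response element, which contains spaced GAAA repeats. The 250 bases before its start lie at chr5:120907526-120907775 on the minus strand of GRCm38.p6 (RefSeq), written 5′ to 3′ on the gene's strand. Capitals mark GAAA, any 2 bases and GAAA again, searched on both strands, and the 2 matches here overlap in a single run.
Oas1a: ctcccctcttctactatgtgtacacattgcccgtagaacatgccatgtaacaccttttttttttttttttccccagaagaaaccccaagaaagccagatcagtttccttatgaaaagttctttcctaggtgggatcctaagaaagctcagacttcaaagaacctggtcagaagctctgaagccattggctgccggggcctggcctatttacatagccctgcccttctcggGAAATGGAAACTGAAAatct
Of the 24 interferon list members, 20 had a promoter in the table and 14 held the motif, against 3.58% of the tested genes with a promoter in the table. The list was defined by interferon inducibility, and a match is again only a string of letters.

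**Figure D3:**
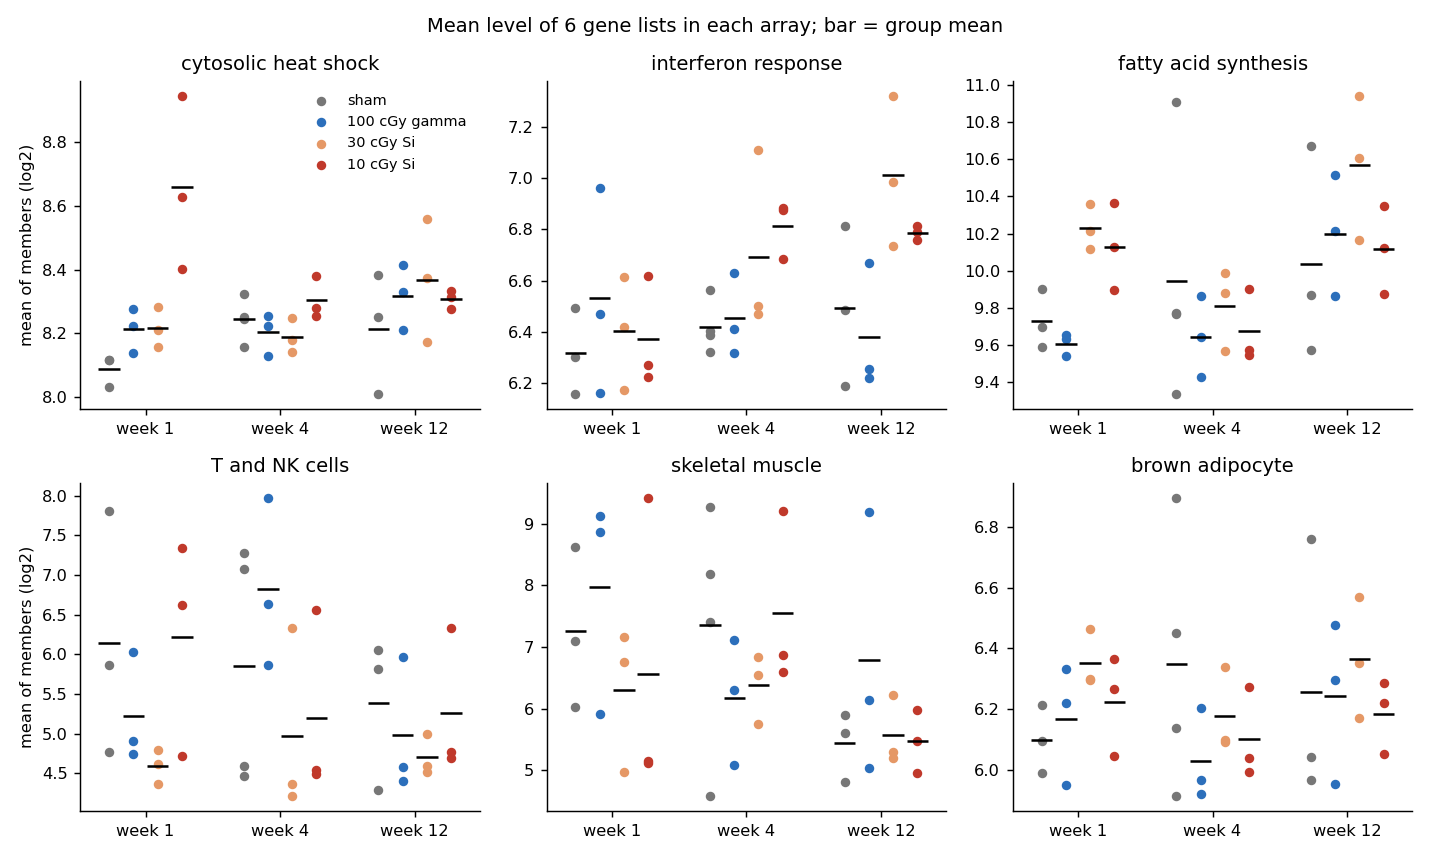
Mean log2 level of the members of 6 gene lists in every array, by week, with 1 point per array and a black bar for the group mean, coloured by treatment. The heat shock list separates 10 cGy Si from gamma at week 1 and the interferon list at weeks 4 and 12, while the T and NK cell and skeletal muscle lists spread widely within single groups, muscle from 5.12 to 9.42 in the Si arrays of week 1.

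Genes with the smallest unadjusted p over the 3 weeks were given by the rule for named genes as 10 in each direction, all with a limma adjusted p of 0.964. Jaml, an adhesion molecule of leukocytes that binds an epithelial junction protein, was at 5.82, 5.66 and 5.75 after Si and at 5.08, 5.47 and 5.29 after gamma at week 1. At week 4 the values were 6.02, 5.88 and 5.80 against 5.59, 5.35 and 5.46, and at week 12 they were 5.28, 5.43 and 5.29 against 5.22, 5.0 and 5.0. The Si arrays lay above the gamma arrays in each of the 3 weeks.

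The 3-week difference of Jaml was 0.39 ± 0.09, with a 95% interval from 0.20 to 0.57, and it ranged from 0.35 to 0.42 as single arrays were left out. Against sham it differed by 0.25 after Si and by −0.14 after gamma. Array separation in the same direction in all 3 weeks was found for 5 genes (0.038%), Jaml, Crem, Alkbh7 and Mrps25 above gamma and Plppr2 below. The last 4 were singled out after their values were seen. In single weeks 11.9%, 12.1% and 9.31% of genes separated in either direction. Whether 5 genes exceed what those weekly shares would give by themselves was not tested. Crem, a cyclic AMP response factor, was at 0.25 ± 0.07, Alkbh7, a mitochondrial dioxygenase, at 0.25 ± 0.09, the mitoribosomal gene Mrps25 at 0.23 ± 0.08 and Plppr2 at −0.24 ± 0.07.

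Among the other named genes above gamma over the 3 weeks, Reg3g, a secreted antibacterial lectin, had the widest difference, 0.64 ± 0.18. It was at 0.10 ± 0.31 at week 1, 0.97 ± 0.31 at week 4 and 0.86 ± 0.31 at week 12. Its sham arrays at week 12 (5.32, 4.79 and 5.40) overlapped the Si arrays (4.71, 5.34 and 5.31), and the gamma arrays (4.21, 4.30 and 4.28) lay below both. At week 4 it was the Si arrays (4.60, 5.29 and 5.10) that stood above gamma (4.24, 3.50 and 4.35). The gamma value of 3.50 was below the filter value of log2 4.04.

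Nr2f1 was at 0.24 ± 0.06 over the 3 weeks, with a value of 0.00 ± 0.10 at week 1. Against sham it differed by −0.05 after Si and by −0.29 after gamma. Fyb2 was at 0.44 ± 0.11 and Akr1b8 at 0.43 ± 0.12, with week 4 values of 1.02 and 0.73. Pknox1, a homeodomain partner of Pbx proteins, was at 0.27 ± 0.08, the calcium-binding gene Pdcd6 at 0.21 ± 0.06, the methionine salvage gene Apip at 0.23 ± 0.06 and the noncoding RNA gene Lncenc1 at 0.39 ± 0.11.

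Named genes on the other side were close to each other in size. Cbx2, a Polycomb subunit, differed by −0.28 ± 0.08 and was at −0.33, −0.25 and −0.27 in the 3 weeks. Ephb4, the ephrin receptor of veins and mammary epithelium, was at −0.22 ± 0.06, with a 3-week value against sham of 0.00 after Si and 0.22 after gamma. The orexin receptor gene Hcrtr1 was at −0.30 ± 0.09, the POU factor gene Pou6f1 at −0.26 ± 0.07, Gapdhs at −0.26 ± 0.07, the testis kinase gene Tssk4 at −0.25 ± 0.07, Kif7 at −0.25 ± 0.07, Morn1 at −0.27 ± 0.08 and Ifi27l2b at −0.34 ± 0.10. With the mean of probe sets Gapdhs was at −0.16 and Kif7 at −0.09. Psrc1 was at −0.45 ± 0.13, and at −0.04 without week 1.

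**Figure D4:**
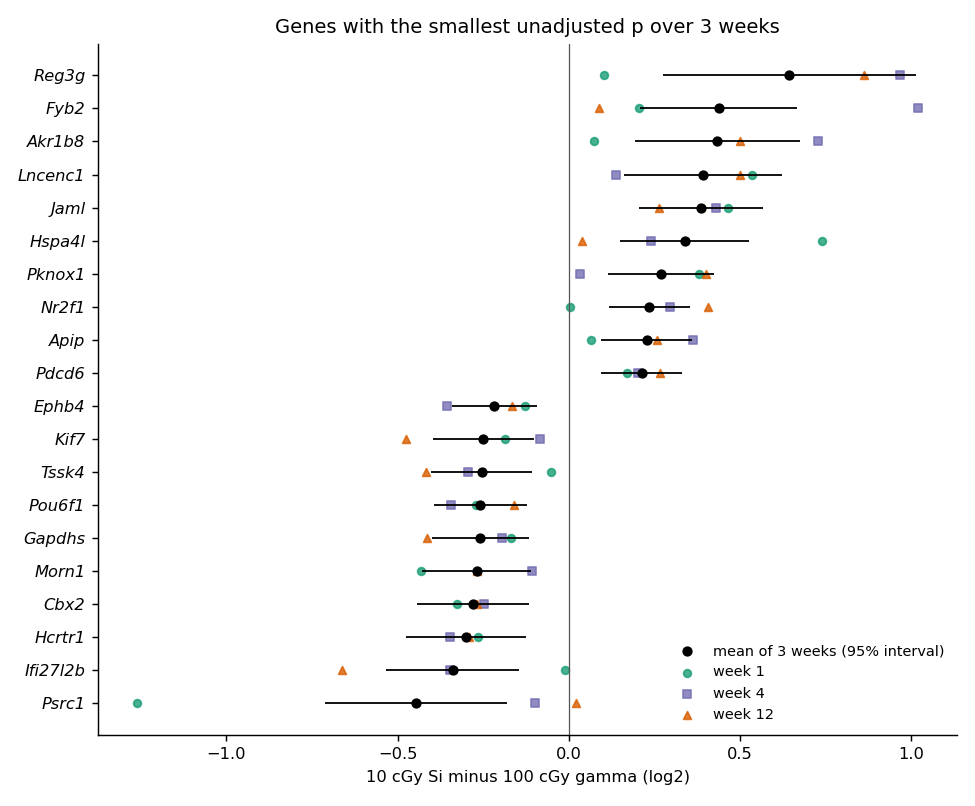
The 20 genes named for their 3-week difference. Black points are log2 differences of 10 cGy Si minus 100 cGy gamma averaged over 3 weeks, with 95% intervals, and coloured symbols are the differences at weeks 1, 4 and 12. Psrc1, Hspa4l and Fyb2 have 1 week far from the other two, while the weekly values of Jaml, Pdcd6, Cbx2 and Hcrtr1 lie close together.

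Whether the Si minus gamma difference itself changed between weeks was tested with a moderated F test. It called 0 genes (percent called 0.0), with 578 at an unadjusted p under 0.05 (4.39%) and a smallest adjusted p of 0.998. The genes with the smallest p were the zinc finger gene Zscan29, Slit2, the microtubule-guiding gene Nav3, Psrc1 and the RNA helicase gene Skiv2l. Zscan29 differed by 0.35 ± 0.11 at week 1 and by −0.34 ± 0.11 at week 4, and Skiv2l by 0.35 ± 0.10 and −0.27 ± 0.10. Slit2 was at −0.43 ± 0.16 at week 1, 0.10 ± 0.16 at week 4 and 0.61 ± 0.16 at week 12.

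Across all 35 lists, which held 665 different tested genes, 0 members were called in any comparison, and 32 lists had a 3-week median between −0.2 and 0.2. The 3 outside were the interferon list, skeletal muscle (−0.52) and the 3 tested erythroid genes (−0.20). Skeletal muscle had medians of −1.66, 1.5 and −1.40 at the 3 weeks, with no member at an unadjusted p under 0.05, and a 3-week median between −1.03 and −0.07 as single arrays were left out. T and NK cell genes had medians of 0.94, −1.62 and 0.27 and B cell genes of 1.03, −1.25 and −0.09. At week 4, 4 T and NK cell members had an unadjusted p under 0.05 with Si below gamma (background 2.95%) and 1 had separate arrays (background 5.66%).

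Glucocorticoid response genes had 20 of 22 members above 0 over the 3 weeks and a median of 0.08. The leucine zipper gene Tsc22d3 was at 0.30 ± 0.09 and the immunophilin gene Fkbp5 at 0.43 ± 0.17, and both were near 0 at week 12 (−0.08 ± 0.16 and 0.06 ± 0.30). The unfolded protein response list had a week 1 median of 0.12 with 19 of 23 above 0, and its chaperone gene Sdf2l1 was at 0.77 ± 0.34. Proliferation genes had a 3-week median of −0.05 and Mki67 was at −0.26 ± 0.30, ribosomal protein genes 0.04, collagens 0.02, the TGF-beta list 0.00, the Notch list −0.02 and luminal epithelium −0.03.

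**Figure D5:**
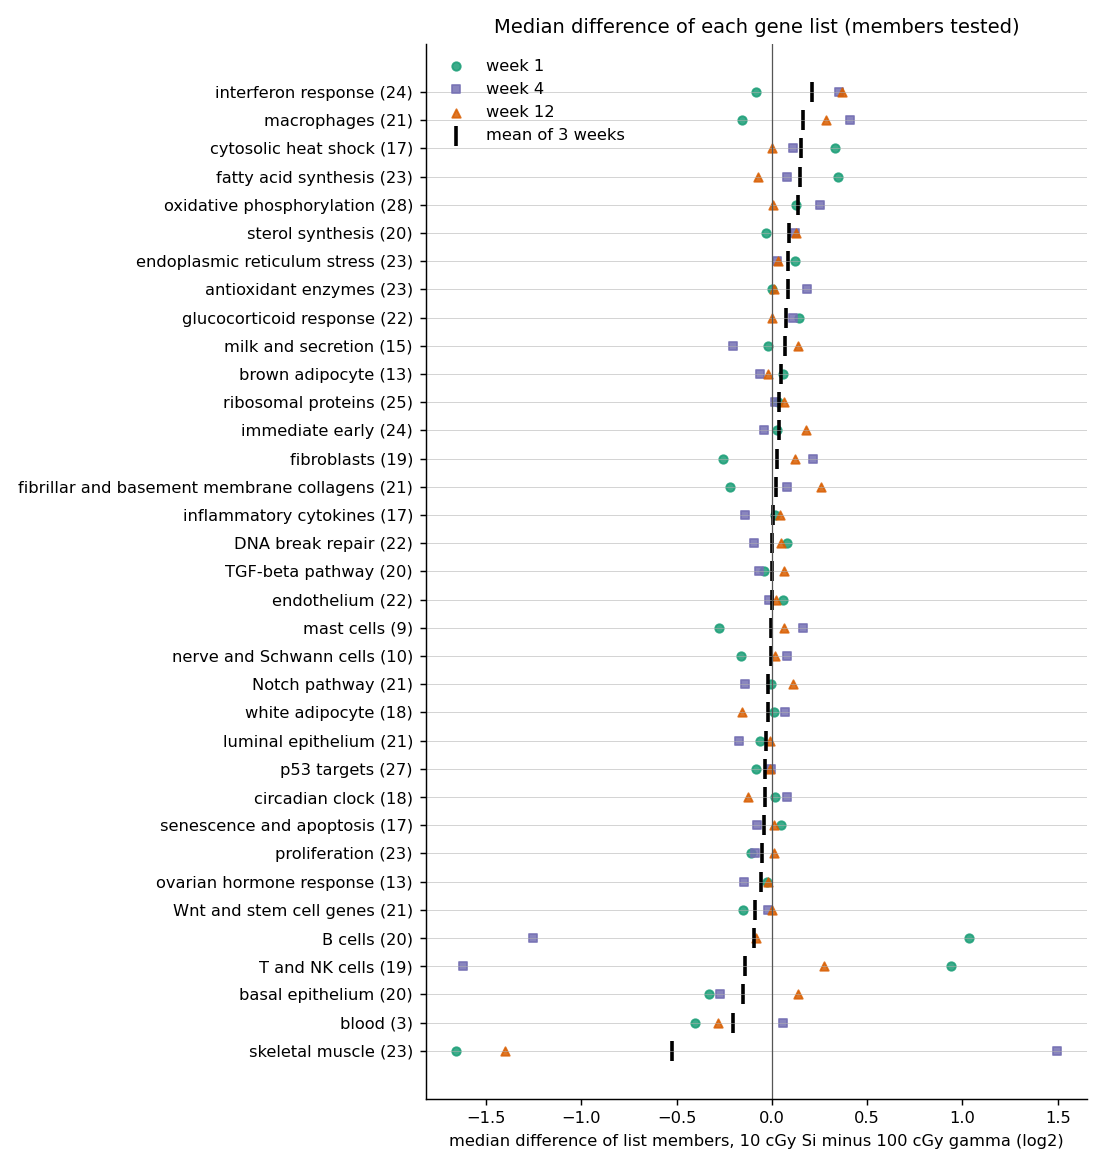
Median log2 difference of 10 cGy Si minus 100 cGy gamma over the tested members of each of 35 gene lists (number tested in parentheses), with symbols for weeks 1, 4 and 12 and a bar for the mean of 3 weeks. Most 3-week bars lie within 0.2 of 0, the interferon list is the highest at 0.21, and the lymphocyte and skeletal muscle lists swing in opposite directions between weeks 1 and 4.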

How the data were processed

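RNA of 37 mammary samples was hybridised to Affymetrix arrays. The values the authors deposited are log2 expression that, per the submitters' processing notes, came from RMA in oligo, with versions not given in the sources used here. No further normalisation was applied. Array medians lay between 5.04 and 5.25, and the number of arrays limits the precision.

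The platform annotation gave 1 symbol for 21218 of 35556 probe sets and several for 1881, and did not list 12457, so the last 2 kinds were not named. Where a gene had more than 1 probe set (1386 of 18820 genes), that of highest mean level over the arrays stood for it. Genes with a mean above the 30th percentile (log2 4.04) were tested, 13174 in all. A gene of low level in both groups can fall below this filter.

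A limma 3.58.1 model (R 4.3.3) with 12 group means was fitted to all 37 arrays (25 residual and 3.4 prior degrees of freedom), with two-sided tests, Benjamini-Hochberg adjustment over the genes of a comparison and calls at an adjusted p under 0.05. Differences are log2 values ± SE, 10 cGy Si minus 100 cGy gamma, and the 3-week value is the mean of the within-week differences. Values against sham or 30 cGy Si share arrays with each other and are given only side by side. Arrays are said to separate, or not to overlap, when every Si array lies on the same side of every gamma array.

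The compared groups and the gene lists were chosen with earlier results of these data known. Named genes are the 10 per direction with the smallest p over 3 weeks, the 5 per direction in a week and the 5 for the difference between weeks, since none was called, plus up to 4 members per list with the largest 3-week difference and 6 followed p53 targets. Predicted and small RNA genes, pseudogenes and receptor segments were passed over. Not every gene named by the rule is printed. Lists are described by counts and medians with no set test. Levels of different genes are not compared.

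Alternatives changed the low-value filter (none, or the 50th percentile), averaged a gene's probe sets, normalised by quantiles, used trend and robust options in eBayes, weighted arrays, blocked on replicate number, fitted the 18 compared arrays alone, added covariates for tissue mix (levels of lymphocyte, muscle, epithelial and brown adipocyte markers), or left out each array, each week or the 2 arrays least like the rest. Those for genes and lists in single weeks, and tissue covariates for list medians, were chosen after seeing the data. The test was checked on simulated data.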

Additional observations from a re-analysis of the deposited data

Results flagged for a closer look

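For 7 genes named by the rule, the arrays of 10 cGy Si and 100 cGy gamma separated in opposite directions in different weeks. Over all 13174 genes this was so for 214 (1.62%), and separation in the same direction in at least 2 weeks for 245 (1.86%). Numbers in parentheses after a gene's pattern are unadjusted probabilities from limma's moderated F test of the difference between weeks. The adjusted p of that test was 0.998 or more for every gene. The 7 genes had been named for a small p in that F test, for a small p in a single week, or as list members. Their patterns and probabilities follow in part from that naming, so the 7 cannot be compared with the share over all genes.

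Usp12 had Si above gamma at weeks 1 and 12 and below at week 4 (0.00125). Slit2 had Si below at week 1 and above at week 12 (0.000413). Nav3 had Si below at week 1 and above at weeks 4 and 12 (0.000533), with differences of −0.29 ± 0.12, 0.36 ± 0.12 and 0.40 ± 0.12. Zscan29 (0.000376) and Skiv2l (0.000583) had Si above at week 1 and below at week 4. Urad had Si above at week 4 and below at week 12 (0.00295).

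The mast cell list showed the same kind of pattern. Tpsab1, a mast cell tryptase gene, had Si above at week 4 and below at week 12 (0.00801), with levels at week 4 of 4.95, 4.97 and 4.89 after Si and 4.70, 4.52 and 4.08 after gamma, and a week 12 difference of only −0.09 ± 0.16. The mean of the 9 mast cell genes separated with Si below gamma at week 1 and above at week 4, where it was 0.18 higher, and the difference between weeks was not tested for this mean. The mast cell protease gene Cpa3 was at −0.61 ± 0.30 at week 1. Groups of 3 arrays are too small for a check of single outlying arrays.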

How the results depend on the processing

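The 3-week comparison and week 12 called 0 genes under every alternative run. Week 1 called 1 gene with quantile normalisation (Psrc1, −1.25, limma adjusted p = 0.0387), 3 with array weights (Psrc1 −1.25, Hsph1 1.27, Hspb1 0.90) and 1 with tissue covariates (Psrc1 −1.28, adjusted p = 0.0460). Leaving out single arrays gave 0 to 4 calls at week 1, namely Psrc1 without gamma replicate 1 (−1.48) or gamma replicate 3 (−1.46) and 4 genes without Si replicate 1. Week 4 called 1 gene with array weights (Fyb2, 1.07, adjusted p = 0.0175) and 0 as single arrays were left out. The difference between weeks called 0 to 1, the 1 being Hspb1 without Si week 1 replicate 1. The limma adjusted p of Psrc1 at week 1 ranged from 0.00745 to 0.907 over all alternatives, and the cause of these shifts was not tested. Counts at an unadjusted p under 0.05 ranged from 365 to 1095 over 3 weeks, 355 to 1170 at week 1, 403 to 1679 at week 4, 282 to 786 at week 12 and 383 to 1536 for the difference between weeks. No called direction reversed. List medians near 0 could change sign, as that of the interferon list at week 1 did, from −0.26 to 0.06 as single arrays were left out. The replicate block gave 0 calls in each of the 5 comparisons and changed no other call. Same-numbered arrays did not consistently deviate together (correlations from −0.46 to 0.48). With 3 arrays per group this cannot settle whether the numbers pair the samples, which were treated as unpaired. The median SE of a difference was 0.159 in a single week and 0.0915 over 3 weeks, which bounds what could be detected.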

Other observations

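Probe sets without a single gene symbol were fitted with the same model. Of 8172 that passed the filter on low values, limma called 0 in each of the 5 comparisons, and 374 had an unadjusted p under 0.05 over the 3 weeks, 277 at week 1, 391 at week 4, 429 at week 12 and 311 for the difference between weeks.

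Some list members outside the comparisons described above had values a reader may want to see. Arntl, the core clock activator, was at 0.75 ± 0.31 at week 1 and 0.47 ± 0.31 at week 12, with separate arrays both times, and at −0.06 ± 0.31 at week 4. The clock list as a whole had a week 12 median of −0.12, with 4 of 18 members above 0. At an unadjusted limma p under 0.05 there were 3 members below 0 (background 1.95%). The arrays of 3 members separated with Si above gamma (background 5.11%) and of 2 with Si below (background 4.21%). Foxa1, the luminal pioneer factor, was at −0.76 ± 0.30 at week 4 and −0.39 ± 0.30 at week 12, again with separate arrays, and at −0.03 ± 0.30 at week 1. Csn2, the milk protein beta-casein, was at −1.55 ± 0.72 at week 4 with overlapping arrays. Lum, a collagen-binding proteoglycan of fibroblasts, was at −0.41 ± 0.31 at week 1 with separate arrays and 0.74 ± 0.31 at week 12. None of these passed the adjusted threshold in limma.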
